A study of Rattus norvegicus with 6 samples.

Results

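The 10 genes described here are members of the Hippo pathway and its output: the co-activator genes Yap1 and Wwtr1 (the gene of TAZ), the transcription factor genes Tead1, Tead2, Tead3 and Tead4, the kinase genes Lats1 and Lats2, and Ctgf and Cyr61, which encode secreted matricellular proteins of the CCN family. They were chosen by gene symbol, and all 10 were found among the 27217 genes of the table. RNA sequencing compared 3 libraries of RCS cells, a line derived from a rat chondrosarcoma that keeps chondrocyte features, with 3 libraries of neonatal rat rib tissue. No treatment, genotype, strain or exact age is given for either group. The design text calls the replicates biological but names no culture or animal, so p-values measure the spread between these libraries, which may be technical.

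In the Hippo pathway, the MST kinases (genes Stk3 and Stk4) activate the LATS kinases, which phosphorylate YAP and TAZ and so keep them out of the nucleus or mark them for degradation. YAP and TAZ that enter the nucleus bind TEAD factors, since they do not bind DNA themselves, and raise transcription of genes such as Ctgf and Cyr61. The pathway responds to cell density and matrix stiffness, and much of its control acts on the proteins, which RNA levels do not show. In cartilage, CTGF is a matrix and growth factor of the growth plate, and YAP takes part in chondrocyte proliferation and maturation.

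The TEAD element GGAATG, or CATTCC when it lies on the opposite strand, was searched on both strands in the 250 bases before the annotated start of each gene (RefSeq, assembly GRCr8). Windows were found for 6 of the 10 genes, namely Yap1, Wwtr1, Tead3, Lats1, Ctgf and Cyr61. The promoters of Ctgf and Cyr61 are shown because these target genes lay on opposite sides of the comparison. Both are on the minus strand, Ctgf (RefSeq symbol Ccn2) at chr1:22624615-22624864 and Cyr61 (RefSeq symbol Ccn1) at chr2:237225690-237225939. Each is printed 5′ to 3′ up to the base before the start, with the elements in capitals.
Ctgf: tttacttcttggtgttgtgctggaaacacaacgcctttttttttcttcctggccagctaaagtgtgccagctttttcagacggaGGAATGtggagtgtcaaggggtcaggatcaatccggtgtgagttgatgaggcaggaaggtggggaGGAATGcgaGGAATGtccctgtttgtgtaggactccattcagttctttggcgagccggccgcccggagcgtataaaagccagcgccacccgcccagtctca
Cyr61: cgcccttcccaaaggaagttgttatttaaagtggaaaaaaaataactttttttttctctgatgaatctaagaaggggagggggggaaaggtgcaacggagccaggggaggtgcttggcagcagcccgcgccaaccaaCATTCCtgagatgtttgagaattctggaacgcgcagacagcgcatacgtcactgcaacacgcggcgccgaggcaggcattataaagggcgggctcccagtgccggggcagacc

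The Ctgf window held 3 elements, beginning 166, 101 and 92 bases before the start, and the Cyr61 window held 1, on the opposite strand, beginning 113 bases before it. The Yap1 window also held 1 element, and the Wwtr1, Tead3 and Lats1 windows held 0. Among 33469 promoter windows of the same length, 12.1% held at least 1 element and 0.0807% held at least 3. A match of these letters describes the sequence and was not tested for binding.

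Levels are given as normalized counts, that is read counts divided by 1 factor per library, which is how the deposited log2 values were read. Library depth was estimated at 5320000 to 8530000 reads on genes. Apart from Tead2, each member rested on an estimated 74.2 to 2183 reads per library. Read in this way, normalized counts are not divided by gene length. Levels are therefore compared between libraries, and a ratio of 2 genes is read only for how it differs between the groups. Differences are RCS cells minus rib tissue on the scale of log2(normalized count + 1), with their standard error (SE), and folds are taken from that scale, which understates changes of low genes. A gene was called at a limma adjusted p (Benjamini-Hochberg, over 16809 tested genes) under 0.05. Of the 8 chondrocyte marker genes examined, 2 were higher and 2 lower in RCS cells, and all 8 were detected in every library. Of 39 markers of muscle, fibroblasts, endothelium, pericytes and myeloid cells in the table, 38 were lower in RCS cells. Since all of these lists were lower, each moves with any gene lower in RCS cells. Their placing below beside particular results singles out no cell type. In bulk samples of this kind, fewer cells of a type and less RNA per cell cannot be told apart.

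All 10 genes passed the test, 8 lower and 2 higher in RCS cells. Over all tested genes, 76.5% passed, with 43.6% lower and 32.9% higher. No member overlapped between the groups, which was also true of 78.9% of tested genes. The median difference was -0.83 over the members and -0.15 over all genes, and 4 members were at least 2-fold lower (Tead1, Tead2, Tead3 and Ctgf), against 33.1% of all genes. Tead2 passed the filter on low values through rib tissue alone, so it could not have come out higher. The scaling between libraries moves small differences. The median over all genes was 0.32 under quantile normalization, 0.14 under median scaling and 0.03 under cyclic loess, and the calls over all genes went from 5536 higher and 7324 lower to 8000 and 4924, 7143 and 6220, and 6242 and 6206.

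**Figure D1:**
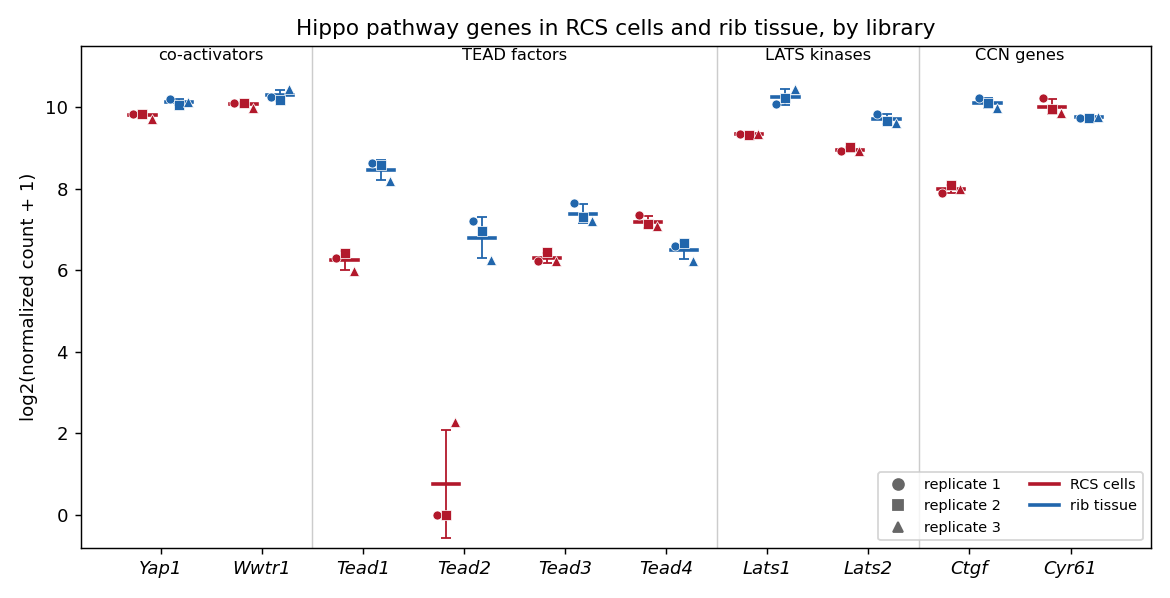
Level of the 10 genes in each library, as log2(normalized count + 1), with RCS cells in red and rib tissue in blue. Symbols are the libraries, horizontal bars the mean and whiskers the SD (n = 3). The groups do not overlap at any of the 10 genes, and the gaps are widest at Tead2, Tead1 and Ctgf.

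The co-activator genes were near the same level in both groups. Yap1 (ENSRNOG00000005933) stood at 915, 915 and 841 normalized counts in RCS cells replicates 1, 2 and 3 and at 1171, 1058 and 1121 in rib tissue. All 3 rib libraries lay above all 3 RCS libraries, by a mean of 1117 ± 56.5 against 890 ± 42.9 (SD, n = 3 libraries each). The difference was -0.33 (SE 0.08), or 1.25-fold, with a limma adjusted p of 0.0047 (Benjamini-Hochberg). Wwtr1 (ENSRNOG00000016617), whose product TAZ shares the TEAD-binding and WW domains of YAP, stood at 1106, 1099 and 1014 in RCS cells and at 1225, 1160 and 1393 in rib tissue. The groups again did not overlap, but rib tissue replicate 3 stood well above the other two. Its difference was -0.23 (SE 0.09), with a limma adjusted p of 0.0479 (Benjamini-Hochberg).

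Neither co-activator call held under every scaling. Yap1 was at -0.13 under quantile normalization and -0.04 under median scaling, and did not pass the test in either. Wwtr1 turned to 0.02 and 0.06 under these settings. It also missed the threshold under cyclic loess (-0.15), with array weights (-0.15), without RCS cells replicate 1 (-0.25), 2 (-0.25) or 3 (-0.19), and without rib tissue replicate 1 (-0.25) or 3 (-0.15). The balance between the pair needs no scaling between libraries. The log2 ratio of Wwtr1 to Yap1 within a library was 0.27, 0.26 and 0.27 in RCS cells and 0.07, 0.13 and 0.31 in rib tissue. It differed by 0.10 (SE 0.07), and the groups overlapped (exact permutation test, two-sided, p = 0.4, adjusted over 6 ratios 0.48).

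The TEAD genes, which encode the DNA-binding partners of YAP and TAZ, differed far more, and in opposite directions. Tead1 (ENSRNOG00000015488), the member best known from skeletal and heart muscle, stood at 78.4, 85.2 and 62.3 normalized counts in RCS cells and at 392, 381 and 291 in rib tissue. Rib tissue was 4.66-fold higher (difference -2.22, SE 0.16, limma adjusted p by Benjamini-Hochberg 5.02e-06). Replicate 3 was the lowest library in each group.

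Tead2 (ENSRNOG00000020695), a TEAD gene of early embryos and progenitor cells, was listed at 0 in RCS cells replicates 1 and 2 and stood at 3.9 normalized counts in replicate 3, which is an estimated 5.5 reads. In rib tissue it stood at 147, 123 and 74.8. A value listed here as 0 stands for a normalized count of 1 or less, so RCS cells were at or near the detection limit. The fitted difference of -6.04 (SE 0.62, limma adjusted p by Benjamini-Hochberg 3.78e-05) depends on the pseudocount and ran from -8.34 to -3.44 over the 15 alternatives, so no fold is given.

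Tead3 (ENSRNOG00000000506), a broadly expressed member that is high in placenta, stood at 73.5, 85.6 and 74.2 in RCS cells against 200, 156 and 148 in rib tissue. Rib tissue was 2.13-fold higher (difference -1.09, SE 0.15, limma adjusted p by Benjamini-Hochberg 0.000198). Tead4 (ENSRNOG00000005608), which the early embryo needs for trophectoderm and which is also active in muscle differentiation, was the only TEAD gene higher in RCS cells. It stood at 162, 139 and 135 normalized counts there and at 95.8, 100 and 74.2 in rib tissue. The difference was 0.69 (SE 0.15), 1.61-fold, with a limma adjusted p of 0.0032 (Benjamini-Hochberg). The directions of the 4 TEAD genes were kept, and their calls too, under all 15 alternatives, from 0.52 to 1.18 for Tead4, -2.45 to -1.93 for Tead1 and -1.26 to -0.73 for Tead3.

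Set against Tead4 in the same library, the other TEAD genes were lower in RCS cells. The log2 ratio of Tead1 to Tead4 was -1.04, -0.69 and -1.11 in RCS cells against 2.02, 1.91 and 1.96 in rib tissue, and differed by -2.91 (SE 0.13). The ratio of Tead3 to Tead4 differed by -1.78 (SE 0.18) and that of Tead2 to Tead4 by -6.73 (SE 0.83). The size of the Tead2 ratio depends on the pseudocount, since Tead2 was at or near the detection limit in RCS cells. At each of these 3 ratios, the RCS and rib libraries did not overlap, and the exact two-sided permutation test gave p = 0.1, the smallest that 3 against 3 libraries allow (0.15 adjusted over 6 ratios).

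Skeletal muscle markers were lower in RCS cells, as were Tead1, Tead2 and Tead3 but not Tead4. All 8 of 8 were lower in RCS cells, with a summed level of 177 to 214 normalized counts in RCS cells and of 40604, 34077 and 22476 in rib tissue replicates 1, 2 and 3, and Myod1 was listed at 0 in every RCS library. Tead1, Tead2, Tead3 and Tead4 were each lowest among the rib libraries in replicate 3. That library also had the lowest sum of the muscle, fibroblast (43455), endothelial (2781), myeloid (1127) and osteoblast (1444) markers. Its smooth muscle sum was lowest too (8729), but close to those of replicates 1 (9251) and 2 (8849). Cspg4, the largest part of these sums, was highest in replicate 3 (3887, 3424 and 4428 in replicates 1, 2 and 3). The other smooth muscle and pericyte markers except Cnn1 were lowest there. Chondrocyte markers summed to 169609, 104277 and 171236 in rib tissue replicates 1, 2 and 3. Col2a1 made up most of these sums (112920, 55595 and 97595), so their near level in replicates 1 and 3 rests on that gene. Every other chondrocyte marker was highest among the rib libraries in replicate 3, such as Col9a1 (17275, 14445 and 24580). The part of these cell types in the differences was not tested. Without rib tissue replicate 3 the calls of all 4 TEAD genes held.

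**Figure D2:**
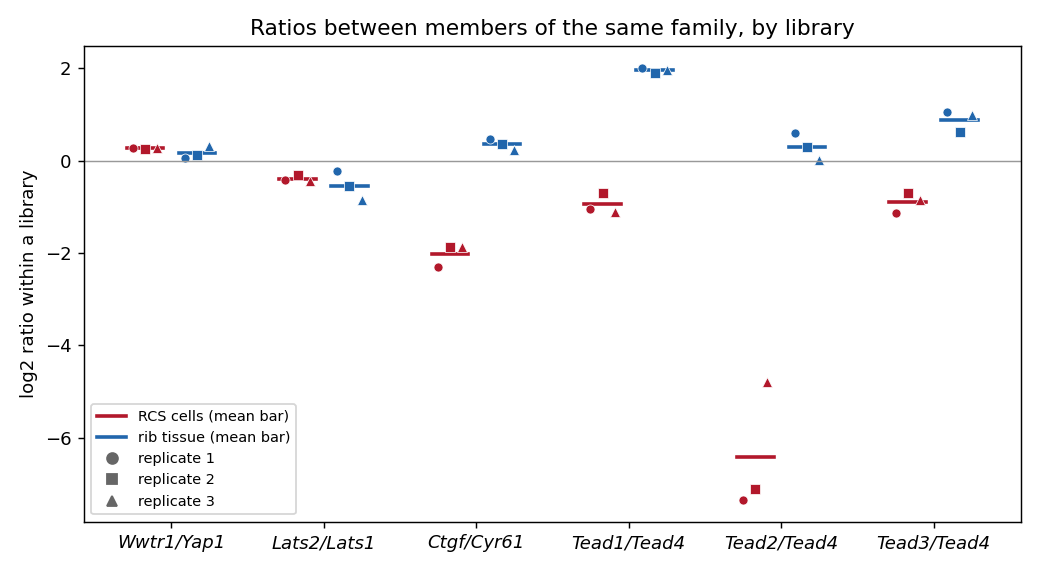
Log2 ratio of 2 members of the same family within each library (pseudocount 1), with RCS cells in red and rib tissue in blue, symbols for libraries and bars for means. Wwtr1/Yap1 and Lats2/Lats1 overlap between the groups, while Ctgf/Cyr61 and the 3 TEAD ratios do not.

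The LATS kinase genes, whose products restrain YAP and TAZ, were both lower in RCS cells. Lats1 (ENSRNOG00000014916) stood at 646, 642 and 653 normalized counts in RCS cells, a spread of 5.94 (SD), and at 1072, 1194 and 1397 in rib tissue. The rib mean was 1.88-fold above that of RCS cells (difference -0.91, SE 0.10). Lats2 (ENSRNOG00000010544), which is itself a YAP target, stood at 484, 518 and 486 in RCS cells against 913, 813 and 778 in rib tissue, where it was 1.68-fold higher (difference -0.75, SE 0.08). Adjusted p-values from limma (Benjamini-Hochberg) were 6.46e-05 for Lats1 and 6.7e-05 for Lats2. Among the rib libraries the pair ran in opposite order, with Lats1 highest and Lats2 lowest in replicate 3. Their log2 ratio, Lats2 to Lats1, was -0.38 ± 0.07 in RCS cells and -0.54 ± 0.31 in rib tissue (SD, n = 3, exact two-sided permutation p = 0.5, also 0.5 adjusted over 6 ratios). Both calls held under all 15 alternatives, at -1.0 to -0.62 for Lats1 and -0.81 to -0.46 for Lats2.

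The CCN genes parted. Ctgf (ENSRNOG00000015036), the growth factor of connective tissue and cartilage, stood at 238, 272 and 254 normalized counts in RCS cells and at 1199, 1106 and 1014 in rib tissue. The lowest rib library stood far above the highest RCS library, and the mean was 4.33-fold higher in rib tissue (255 ± 16.8 against 1106 ± 92.3, SD, n = 3). The difference was -2.11 (SE 0.09, limma adjusted p by Benjamini-Hochberg 2.96e-07) and stayed between -2.21 and -1.82 under the 15 alternatives. Its closest relative Cyr61 (ENSRNOG00000014350), an immediate early gene and integrin ligand, was slightly higher in RCS cells, at 1187, 991 and 924 against 857, 853 and 866.

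For Cyr61 the difference was 0.26 (SE 0.10, 1.20-fold, limma adjusted p by Benjamini-Hochberg 0.0429). The rib libraries were nearly level, at 859 ± 6.45 (SD, n = 3), and RCS cells replicate 1 stood above the other two RCS libraries. The call was lost without RCS cells replicate 1 (0.16) or 2 (0.29), without rib tissue replicate 1 (0.26), 2 (0.25) or 3 (0.27), and with array weights (0.25), which leaves 1 member higher in place of 2. Its direction held throughout, with limma adjusted p (Benjamini-Hochberg) from 0.00147 to 0.151. Gapdh, usually among the most abundant transcripts, ranged from 462 to 795 normalized counts across the libraries. Whether the values of abundant genes were compressed was not tested, so the size of the Cyr61 difference holds on this scale only. The same limit applies to Yap1, Wwtr1, Lats1 and Ctgf, which reached similar levels.

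Within a library, the log2 ratio of Ctgf to Cyr61 was -2.31, -1.86 and -1.86 in RCS cells and 0.48, 0.37 and 0.23 in rib tissue. The ratio differed by -2.37 (SE 0.17), with an exact two-sided permutation p of 0.1, the smallest possible with 3 libraries a group (0.15 adjusted over 6 ratios). Leaving out any 1 library kept the direction.

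Fibroblast and pericyte markers moved in the same direction as Ctgf. All 8 of 8 fibroblast and perichondrium markers were lower in RCS cells, with a summed level of 194 to 222 normalized counts against 43455 to 82309, and Dcn and Prrx1 were listed at 0 in every RCS library. All 7 smooth muscle and pericyte markers in the table were lower too, with sums of 1340 to 1707 against 8729 to 9251 and with Cnn1 and Rgs5 at 0. Cspg4 made up most of the RCS sums (1574, 1231 and 1220 in RCS cells replicates 1, 2 and 3). Osteoblast markers, of which 4 of 6 were lower, summed to 1277 to 1381 and 1444 to 4412, with Dmp1 at 0. Their part in the Ctgf difference was not tested.

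**Figure D3:**
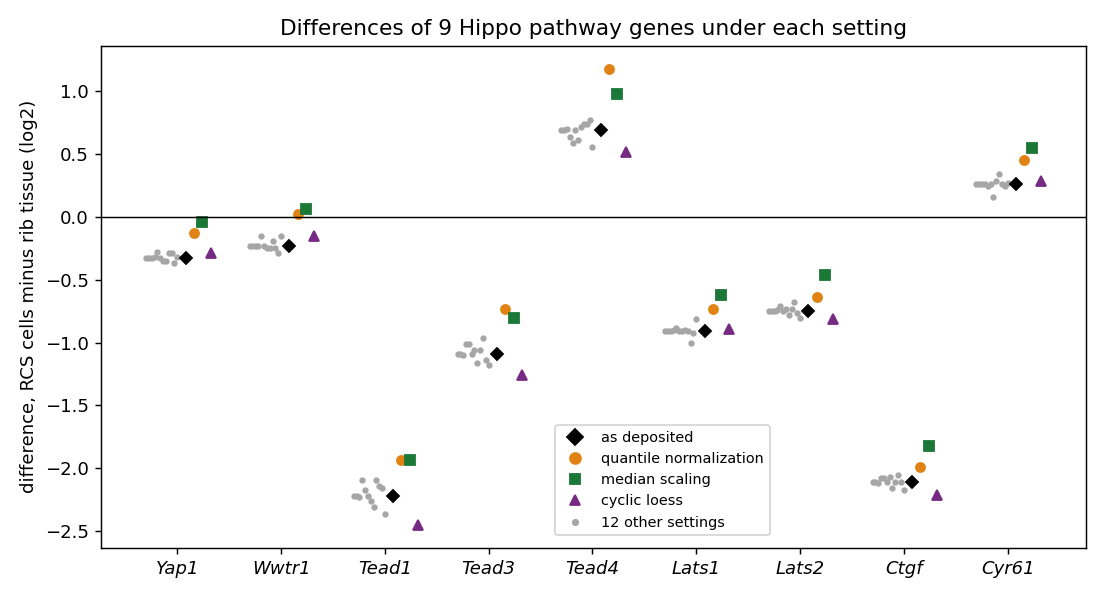
Difference between RCS cells and rib tissue (log2) for 9 of the genes as deposited (black) and under each of 15 alternatives, with the 3 other scalings in colour and the 12 other settings in grey. Tead2 is left out for its wide range. Yap1 and Wwtr1 come close to or cross 0 under quantile normalization and median scaling, and the other 7 genes keep their side.

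The other 4 CCN genes were all lower in RCS cells, against 43.6% of all tested genes, and 3 were lower under quantile normalization or cyclic loess. Wisp1 and Wisp2 passed the filter on low values through rib tissue alone and could not have come out higher. Wisp1, a WNT-induced CCN gene of bone and fibroblasts, was listed at 0 in RCS cells replicates 1 and 2, stood at 1.42 normalized counts in replicate 3, and reached 863, 918 and 745 in rib tissue. Nov, the third CCN gene by current numbering, stood at 4.35, 3.84 and 7.09 against 497, 707 and 435. Wisp3, a gene known from an inherited cartilage disorder, stood at 43.7, 47.0 and 51.5 against 101, 115 and 198, 2.76-fold more in rib tissue (difference -1.46, SE 0.25). Wisp2 was low in both groups, at most 1.42 in RCS cells and 15.8, 9.21 and 2.0 in rib tissue, and its call was lost under quantile normalization (-0.16) and cyclic loess (-0.28). Of the 6 CCN genes, Cyr61 was the one not lower in RCS cells. Adjusted p-values from limma (Benjamini-Hochberg) were 1.59e-07 for Wisp1, 2.04e-07 for Nov, 0.000712 for Wisp3 and 0.00689 for Wisp2.

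Upstream of the LATS kinases, the MST kinase genes and Mob1a were higher in RCS cells, and Sav1 and Mob1b did not pass the test. Stk3, which encodes MST2, stood at 521, 475 and 560 normalized counts in RCS cells and 267, 328 and 313 in rib tissue, 1.71-fold higher in RCS cells (difference 0.78, SE 0.11). Stk4, which encodes MST1, stood at 834, 826 and 861 against 443, 473 and 461, 1.83-fold higher (0.87, SE 0.07). Mob1a, a LATS co-activator, stood at 1139, 1097 and 1036 against 629, 637 and 612, 1.74-fold higher (0.80, SE 0.07). Adjusted p-values from limma (Benjamini-Hochberg) were 0.000198 for Stk3, 8.26e-06 for Stk4 and 1.69e-05 for Mob1a, and these 3 calls held under all 15 alternatives. The Mob1a paralog Mob1b (597 ± 35.3 against 684 ± 49.0, SD, n = 3, difference -0.19) and the MST scaffold gene Sav1 (305 ± 5.71 against 351 ± 45.5, difference -0.20) did not pass the test, and both turned to 0.10 under median scaling.

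Of the 29 cassette and upstream genes, 13 were lower in RCS cells, 10 were higher and 6 did not pass, with a median of -0.19. Over all tested genes, 43.6% were lower and 32.9% higher, so these shares are near the background. Dchs1 passed the filter on low values through rib tissue alone. Wwc1 also needed rib tissue to pass it, since among the RCS libraries only replicates 1 and 2 reached 1 (1.36 and 1.04). Both genes count among the 13. Under quantile normalization 12 were higher and 11 lower, under median scaling 12 and 8, and without RCS cells replicate 2 only 6 were higher. At least 2-fold higher were 2, namely Wwc2, a relative of the LATS activator KIBRA (1802, 1825 and 1709 against 810, 739 and 911, difference 1.12, SE 0.09), and Mob4, a component of the STRIPAK phosphatase complex that opposes MST (524, 546 and 543 against 248, 242 and 240, difference 1.14, SE 0.07). Over all tested genes 14.1% were at least 2-fold higher. KIBRA itself, Wwc1, was low in both groups, at most 1.36 normalized counts in RCS cells and 3.79, 7.65 and 5.0 in rib tissue, and its difference of -1.90 turned to 0.73 under quantile normalization and 0.40 under cyclic loess. Nf2, the tumour suppressor gene of merlin, was 1.23-fold higher in RCS cells (difference 0.30, SE 0.08), and Map4k4, a kinase parallel to MST, 1.25-fold (0.32, SE 0.10). Their calls were lost without RCS cells replicate 2 (0.24 and 0.33), and that of Map4k4 also without RCS cells replicate 1 (0.24) and rib tissue replicates 2 (0.28) and 3 (0.30).

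The cadherin pair Dchs1 and Fat4, ligand and receptor at the cell surface, was lower in RCS cells on both sides. Dchs1 was listed at 0 in RCS cells replicates 2 and 3, stood at 1.09 normalized counts in replicate 1, and reached 2381, 1988 and 1701 in rib tissue. Fat4 remained detected in RCS cells, at 1081, 947 and 1008, and reached 3922, 4049 and 3890 in rib tissue, 3.91-fold more (difference -1.97, SE 0.08). The angiomotin genes, whose products hold YAP in the cytoplasm, split. Amotl1 was 4.46-fold higher in rib tissue (524, 504 and 465 against 2537, 2104 and 2055) and Amot 1.49-fold (534 ± 28.3 against 808 ± 157, SD, n = 3), while Amotl2 (1250 ± 81.2 against 1083 ± 114, difference 0.21) did not pass. Taok3, a kinase that activates MST, was 4.23-fold higher in rib tissue. Adjusted p-values from limma (Benjamini-Hochberg) were 4.3e-08 for Dchs1, 2.48e-07 for Fat4, 4.44e-07 for Amotl1, 0.00538 for Amot, 0.0813 for Amotl2 and 5.01e-06 for Taok3. Amot was not called under median scaling (-0.29), and Amotl2 passed the test as higher under quantile normalization (0.47), with cyclic loess (0.29), with the libraries scaled to 1 median (0.50), with weighted libraries (0.26) and when rib tissue replicate 1 was left out (0.29).

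**Figure D4:**
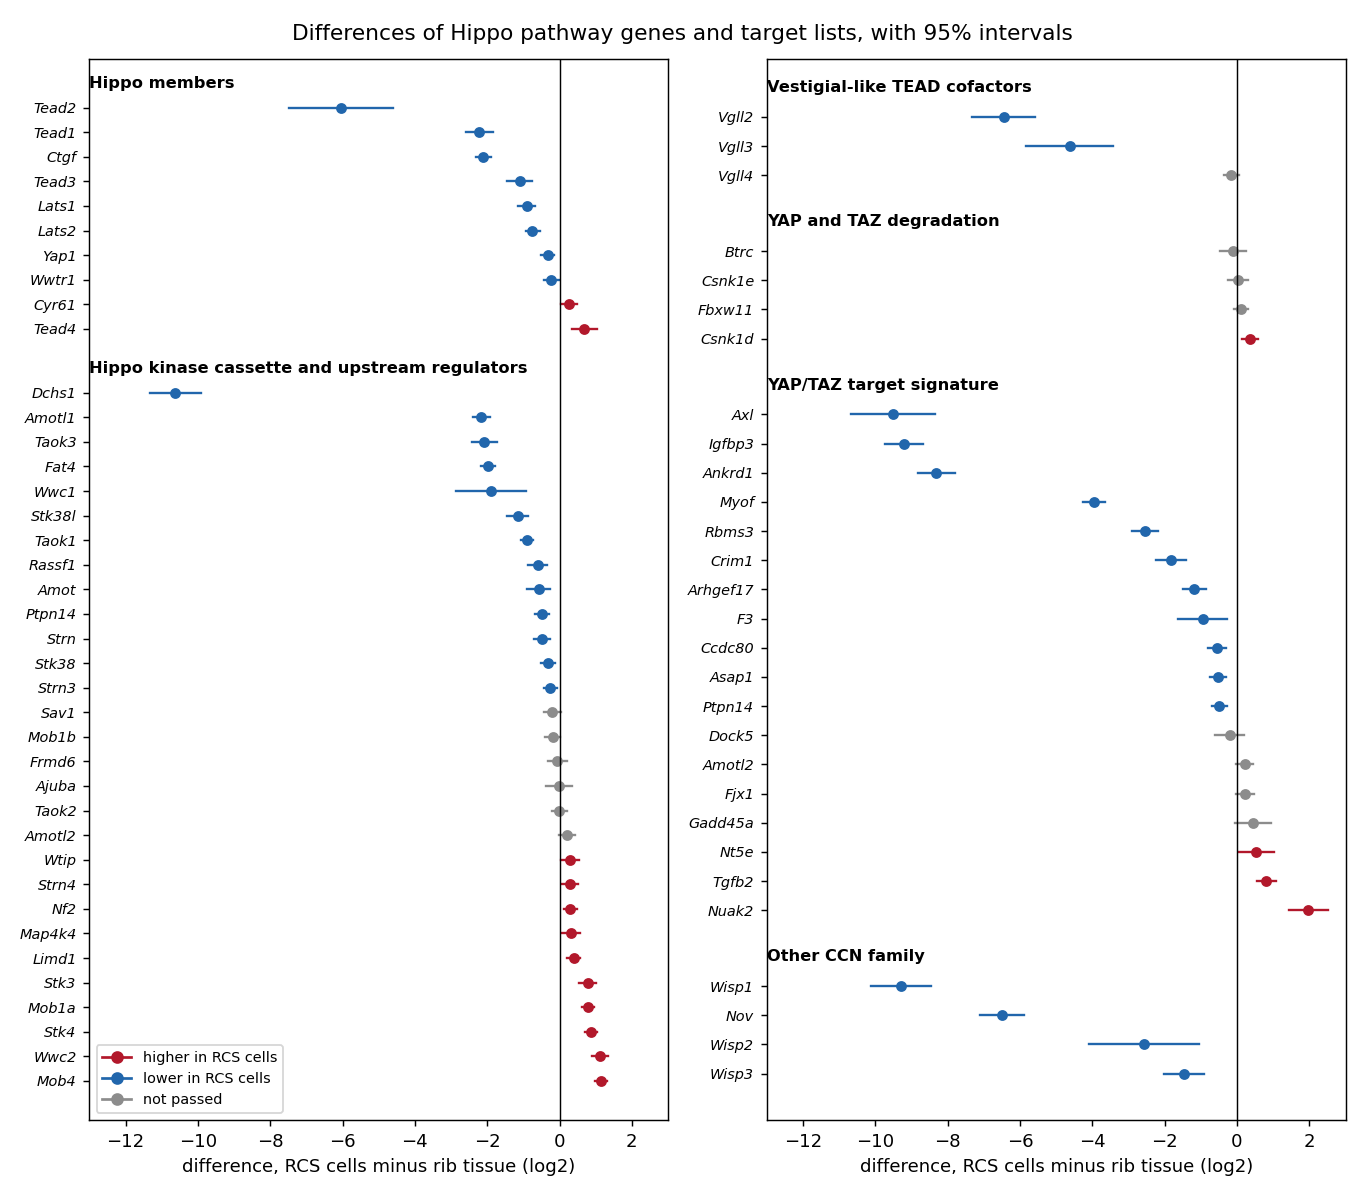
Difference (log2, RCS cells minus rib tissue) with its 95% interval for the 10 members and the genes of 5 further lists, coloured by call. The MST genes Stk3 and Stk4 lie right of 0 and Lats1 and Lats2 left of it, and Dchs1, Axl, Wisp1 and Igfbp3 lie furthest to the left.

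Vestigial-like proteins compete with YAP and TAZ for TEAD factors. Vgll2, the skeletal muscle member, was at 0 in all 3 RCS libraries and stood at 126, 105 and 48.9 normalized counts in rib tissue. Vgll3 was at most 1.42 in RCS cells and at 33.8, 57.0 and 17.1 in rib tissue. Vgll4, the broadly expressed antagonist of YAP, was detected in every library (296 ± 19.7 against 331 ± 21.8, SD, n = 3, difference -0.16, SE 0.09) and did not pass the test, turning to 0.13 under median scaling and being called lower under cyclic loess (-0.35). Vgll2 and Vgll3 passed the filter on low values through rib tissue alone, so they could not have come out higher. Of the 4 genes for YAP and TAZ degradation, the casein kinase gene Csnk1d was higher in RCS cells (967 ± 93.3 against 759 ± 49.3, SD, n = 3, difference 0.35, SE 0.10), and the other three, among them the ubiquitin ligase gene Fbxw11 (0.11, SE 0.09), did not pass. In limma 0 of them were lower, also at an unadjusted p under 0.05, while 2 were higher under quantile normalization and 3 under median scaling.

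A list of YAP and TAZ targets known from other cell types, without the members, held genes of both directions. Of 18 genes tested, 11 were lower in RCS cells, 3 higher and 4 did not pass, where 43.6% of all tested genes were lower and 32.9% higher. Ankrd1, Igfbp3 and Axl passed the filter on low values through rib tissue alone, so they could only come out lower, and they count among the 11. The list's median was -0.54 (also -0.54 with the 2 genes at 0 in all RCS libraries set to 3 reads per library). Both of these genes lie far below the median either way, so that setting could not move it. At least 2-fold lower were 7, with Ankrd1, Igfbp3 and Axl among them, against 33.1% of all tested genes. Amotl2 and Ptpn14 stand in this list and in the upstream list. The split was 6 higher and 9 lower under quantile normalization, 6 and 8 under median scaling, and 6 and 11 with array weights. Ankrd1, a classic YAP target that is also a muscle ankyrin repeat gene, was at 0 in all 3 RCS libraries and stood at 345, 321 and 291 normalized counts in rib tissue. The growth factor binding protein gene Igfbp3 was likewise listed at 0, against 640, 666 and 474. Axl, a receptor tyrosine kinase gene, was at 2.85 in RCS cells replicate 3, at 0 in the other two libraries, and at 1314, 1252 and 909 in rib tissue.

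Other targets remained on in RCS cells. Myof, a membrane repair gene also known from myoblast fusion, was 15.5-fold higher in rib tissue (77.0, 64.7 and 65.5 against 1106, 1236 and 923) and the RNA-binding protein gene Rbms3 5.80-fold (58.7 ± 7.06 against 347 ± 61.2, SD, n = 3). Ptpn14, a phosphatase gene that is both target and inhibitor of YAP, was 1.40-fold and the matrix gene Ccdc80 1.47-fold higher in rib tissue. Both of these calls were lost under median scaling (-0.20 and -0.27), and that of Ccdc80 also under quantile normalization (-0.24). The kinase gene Nuak2 was 3.93-fold higher in RCS cells (100, 142 and 144 against 39.0, 34.3 and 23.5, difference 1.97, SE 0.24), and the growth factor gene Tgfb2 1.76-fold (1338, 1296 and 1291 against 627, 751 and 877, difference 0.81, SE 0.12). The nucleotidase gene Nt5e was 1.44-fold higher, but its groups overlapped (540, 528 and 593 against 291, 350 and 551), and the call was lost without RCS cells replicate 1 (0.54), 2 (0.56) or 3 (0.48) or rib tissue replicate 1 (0.33) or 2 (0.46), and also under cyclic loess (0.40) and with a pseudocount of 0.1 (0.53). Adjusted p-values from limma (Benjamini-Hochberg) were 7.17e-08 for Myof, 1.84e-06 for Rbms3, 0.0011 for Ptpn14, 0.00159 for Ccdc80, 9.11e-05 for Nuak2, 0.00032 for Tgfb2 and 0.0456 for Nt5e.

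Most endothelial and all myeloid markers were lower in RCS cells too. Of 8 endothelial markers 7 were lower in RCS cells, with sums of 439 to 476 normalized counts against 2781 to 4369. Cdh5, Kdr, Tie1 and Emcn were at 0 in every RCS library. Vwf did not pass the test (452, 428 and 388 against 601, 512 and 365) and made up most of the RCS sums. All 8 myeloid markers were lower, with sums of 25.4 to 37.3 against 1127 to 2148 and with Ptprc, Aif1, C1qa, C1qb and Tyrobp at 0. Their part in the target differences was not tested. In the promoter windows of 13 of these target and CCN genes, the TEAD element occurred in 3, namely Amotl2, Ptpn14 and Nuak2, with 1 element each.

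The genes whose 6 values ran closest to those of 3 members, after each gene's mean was subtracted, were found by the root mean square difference on the log2 scale. For Yap1 they were Dnm2 (0.03), Ccnd2 (0.04) and KLHDC2 (0.04), for Ctgf Fzd8 (0.06), Spp2 (0.07) and Maged2 (0.07), and for Cyr61 Snrnp200, Ubr2 and Aspscr1 (0.04 each). Fzd8, a WNT receptor gene, stood at 66.5, 70.4 and 71.9 normalized counts in RCS cells against 331, 292 and 302 in rib tissue. Spp2 was listed at 0 in RCS cells and reached only 3.79 in rib tissue. These are descriptions over 6 libraries that fall into 2 groups.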

How the data were processed

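The authors deposited log2 values for 27217 genes in 6 libraries. In each library many low values, but not all, lay on multiples of 1 step shared by many genes. The log2 values were therefore taken to come from read counts scaled by 1 factor per library. The deposited table's name carries RPKM, and this was not resolved. Log2 values of 0 or less, that is counts of 1 or less after scaling, were read as 0. Per the submitters' processing notes, the tools were CASAVA 1.8 and DESeq and the build was rn5, with no step assigned to them. Aligner, counting rule and strand use: not given in the sources used here, so overlapping or antisense genes cannot be told apart. Of values up to 10 reads, 38.7% to 54.9% lay within 0.01 of a whole read, so no count model was fitted.

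limma 3.58.1 (R 4.3.3, intensity trend, two-sided, checked on simulated data) tested log2(normalized count + 1) over genes reaching 1 in at least 3 of 6 libraries, or 2 of 5 with 1 left out. Folds are omitted for group means under 10. Ratios were tested by exact permutation (scipy 1.17.1). Vgll1, Foxf2 and Acta2 were not matched. The members and lists were chosen with earlier results of these data known. Other genes were named by rule (per list the 2 of highest mean and up to 3 called genes in each direction, and the closest profiles of Yap1, Ctgf and Cyr61), and 10 after their values were seen (Stk3, Mob1a, Sav1, Mob1b, Nf2, Amotl2, Wwc1, Myof, Rbms3 and Amot). Alternatives were other scalings, filters, pseudocounts and weights, a replicate block and leaving out each library.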

Additional observations from a re-analysis of the deposited data

How the results depend on the processing

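Over the 15 alternatives, the 10 members kept direction and side of the threshold in 132 of 150 cases, and the exceptions were Yap1, Wwtr1 and Cyr61. The direction turned for Wwtr1 under quantile normalization (0.02) and median scaling (0.06), for Vgll4 (0.13), Sav1 (0.10) and Mob1b (0.10) under median scaling, and for Wwc1 under quantile normalization (0.73) and cyclic loess (0.40). The number of members higher in RCS cells, 2, was 1 with array weights and 1 to 2 with 1 library left out. Of the upstream genes, 8 in place of 13 were lower under median scaling, and 6 to 11 in place of 10 were higher with 1 library left out. Degradation genes higher in RCS cells were 2 under quantile normalization and 3 under median scaling in place of 1, and targets higher were 6 in place of 3 with array weights and under quantile normalization and median scaling. The causes were not tested. Same-numbered libraries did not deviate together (correlations of 0.06, -0.08 and 0.05 for replicates 1, 2 and 3). With the replicate number as a block, 2 members were higher and 7 lower, and over all genes 5536 and 7340, and Wwtr1 (-0.23) did not pass. The ratios kept their direction under every pseudocount and with each library left out, where no p could reach 0.05. Depth limits Tead2, Dchs1, Axl, Vgll2, Vgll3, Wisp1, Wisp2, Wwc1, Ankrd1 and Igfbp3 in RCS cells, which lay at or near the detection limit there.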
